A study of Carassius auratus with 9 samples.

Results

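Genes tied to the yellow pigment cells of fish skin, the xanthophores, were followed in the back skin of celestial goldfish (Carassius auratus, a fancy breed). They comprise every row with the product name GTP cyclohydrolase 1 or macrophage colony-stimulating factor 1 receptor (csf1r), with or without "-like", and the Pax-7-like row LOC113068849. The rule gave 9 of the 74297 gene rows, with 5 GTP cyclohydrolase copies, 3 csf1r copies and 1 Pax-7 row. No row carried the symbol gch1, gch2, csf1r, csf1ra or csf1rb, so copies are named by their locus number. The study sequenced RNA from skin of brown, white and yellow fish to compare skin colors. Each color is represented by 3 libraries that the labels call biological replicates, all from fish aged 4 months, with no treatment or genotype given. The labels do not say whether a library comes from 1 fish or from pooled fish, and skin color is the group itself, so whatever else differed between the fish of different colors cannot be told apart from it.

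GTP cyclohydrolase opens the synthesis of tetrahydrobiopterin and, in pigment cells, of the yellow pteridines that xanthophores store beside carotenoids. The csf1r protein is a receptor tyrosine kinase of macrophages and their relatives, and in zebrafish a copy of it is also needed for xanthophores to spread and persist in the skin. Pax-7 is a paired-box transcription factor that marks the muscle stem cells called satellite cells. In zebrafish and medaka it also takes part in setting cells on the xanthophore path. Goldfish descend from a genome duplication and often carry more than 1 copy of a gene. Reads from closely similar copies may have been split between them, because how the authors treated reads with several matches is not stated in the labels.

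The recovered depth was 13772601 to 17359648 reads per library. Levels are in FPKM, fragments per kilobase of a gene after scaling for library size, in which 1 read on a 1-kilobase gene was worth 0.0448 to 0.0891 FPKM. The libraries numbered 3 stood apart: in each color they had the lowest scaling denominator per counted read (0.675 to 0.762, against 1.08 to 1.39 in the others) and the highest share of reads on a skeletal muscle list, 17.3% in brown 3, 29.5% in white 3 and 23.6% in yellow 3. In the other 6 libraries that share was 0.180% to 10.3%. Skin was recognisable in all 9, with keratins summing to at least 4724 FPKM and type I collagens to at least 4098 FPKM in every library.

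Among the GTP cyclohydrolase copies, LOC113056131 was the one whose libraries separated by color without overlap in all 3 comparisons. It lies on chromosome 37 from 9964959 to 9969613 on the plus strand, is annotated as protein coding, and has the enzyme's domain in the authors' domain column. Its FPKM was 6.67, 4.10 and 1.61 in yellow 1, 2 and 3. It was 1.03, 1.30 and 0.407 in brown 1, 2 and 3. In white it was 0.0231, 0.0287 and 0. Every yellow library was thus above every brown library, and every brown library above every white library. The means were 4.13 ± 2.53 in yellow, 0.911 ± 0.457 in brown and 0.0173 ± 0.0152 in white (SD, n = 3 each). Set among all genes tested, these group means stood at the 60.4th, 10.2th and 0.109th percentile.

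Behind the white values of LOC113056131 stood 2 reads in all, 1 in white 1 and 1 in white 2, while white 3 had none, where 3 reads would have been 0.138 FPKM. Yellow had 468 reads and brown 92. Pooled over libraries and scaled by the denominators, yellow was 226-fold above white, with an exact 95% binomial interval of 62.3 to 1873 that covers counting error only. Brown was 48.3-fold above white (13.0 to 405), and yellow was 4.68-fold above brown (3.74 to 5.92). In bulk skin, fewer cells that use the gene and less RNA per cell cannot be told apart.

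Tested with limma across all genes on log2(FPKM + 1), a scale that understates the change of low genes, LOC113056131 was 2.20 ± 0.39 (SE) higher in yellow than in white, with a 95% interval of 1.33 to 3.07. Its unadjusted p was 0.000247 and its adjusted p 0.289, so it did not pass the threshold of 0.05. It was 0.88 ± 0.39 higher in brown than in white (limma unadjusted p = 0.0480, adjusted p = 0.788). It was 1.32 ± 0.39 higher in yellow than in brown (limma unadjusted p = 0.00718, adjusted p = 1.00). The gene entered the test through 5 libraries at 1 FPKM or more, the 3 yellow ones and 2 brown ones.

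The other 4 GTP cyclohydrolase copies were lower in yellow skin than LOC113056131 and stayed under the expression filter, so none of them was tested. LOC113069480, on unplaced sequence from 69192 to 83894, was found in every library, at 0.431 to 0.896 FPKM in white, 0.146 to 0.772 in brown and 0.804 to 1.12 in yellow. Its yellow libraries lay above all brown ones and overlapped the white ones. Its pooled fold of yellow over brown was 1.77 (1.35 to 2.35). It became 2.81 (1.87 to 4.37) without brown 1 and 1.33 (1.00 to 1.78) without brown 2. LOC113060775, on chromosome 42 from 14307964 to 14318973, was at 0.777, 0.284 and 0.136 FPKM in white and at 0.837, 1.06 and 0 in yellow. In brown it was at 0.507, 0.560 and 0.223. Yellow was 1.60-fold above white by pooled reads (1.10 to 2.36). The fold was 3.29 (1.81 to 6.45) without white 1 and 1.14 (0.710 to 1.82) without yellow 2, and the groups overlapped.

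The remaining pair was barely detected. LOC113111822, on chromosome 12 from 10751287 to 10756129 on the minus strand, had 8, 6 and 7 reads in yellow, 0, 5 and 0 in brown and none in white. With a floor of 3 reads over the white group, yellow was at least 6.77-fold higher, a bound that leaves out the counting error of the 21 yellow reads. The bound was 3.83 without white 1 and 4.41 without white 2. Neither library held a read, so these bounds differ only by the depth under the floor. LOC113060761, on chromosome 42 from 13803817 to 13815587, had 4, 5 and 0 reads in yellow, 1, 0 and 0 in brown and none in white. Counts this low set no order between brown and white.

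**Figure D1:**
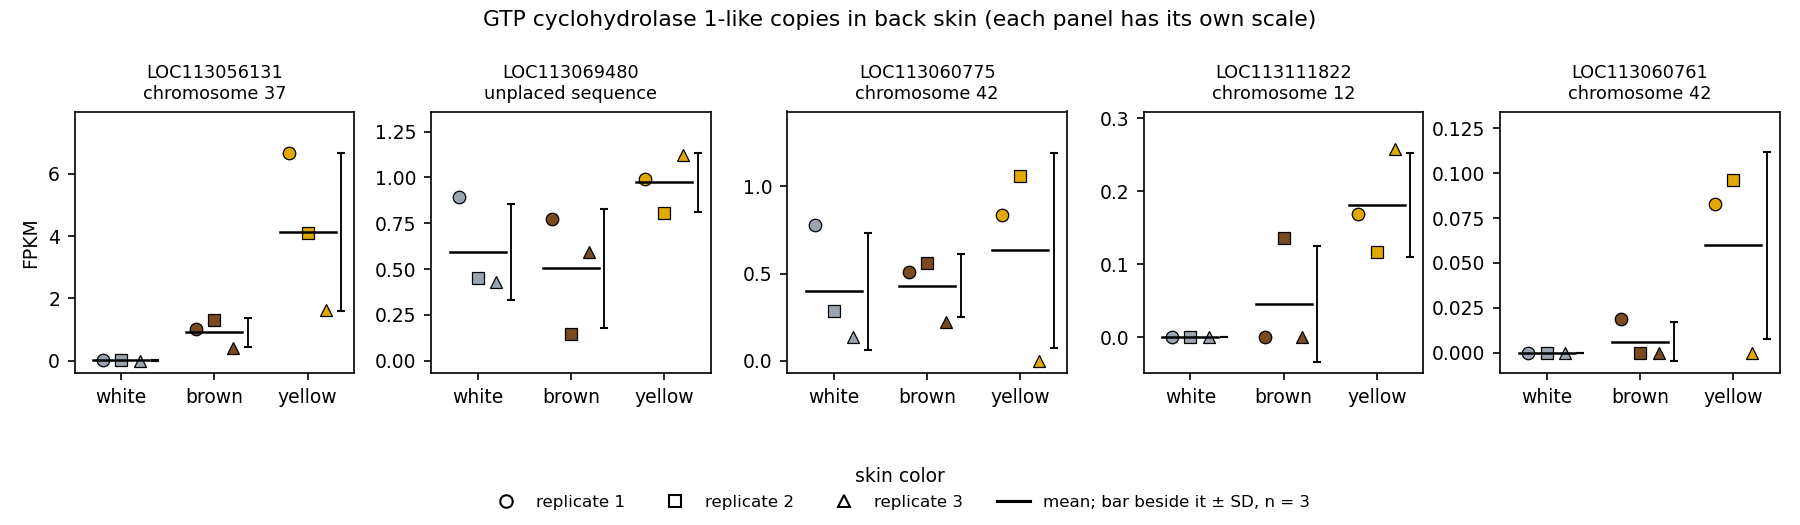
FPKM of the 5 GTP cyclohydrolase 1-like copies in each library by skin color, with a scale of its own in each panel; points are libraries, lines are means and bars are the SD (n = 3). LOC113056131 reached 6.67 FPKM in yellow and at most 0.0287 in white, while LOC113069480 and LOC113060775 overlapped between white and yellow.

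The share of GTP cyclohydrolase reads held by each copy differed between white and yellow libraries. LOC113056131 held 63.9% of 732 pooled reads in yellow and 41.3% of 223 in brown, but 1.32% of 151 in white. By library its share of reads was 70.8%, 61.0% and 43.4% in yellow 1, 2 and 3, and 36.7%, 57.4% and 25.7% in brown 1, 2 and 3. In white 1 it was 1.03% (exact 95% binomial interval 0.0261% to 5.61%), in white 2 it was 2.78% (0.0703% to 14.5%) and in white 3 it was 0 of 18 reads, which allows up to 18.5%. No library of a pigmented color fell as low as any white library. LOC113069480 led by reads in all 3 white libraries. It also led in brown 1, with 53 of 120 reads (44.2%) against 44 for LOC113056131. In brown 3 it led with 21 of 35 reads (60.0%) against 9, and in yellow 3 with 40 of 83 (48.2%) against 36.

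Per length, LOC113056131 was the highest of the 5 copies in 3 yellow and 2 brown libraries and in no white library. The 5 copies summed to 5.97 ± 2.88 FPKM in yellow, 1.90 ± 0.590 in brown and 1.01 ± 0.603 in white. The 3 copies LOC113069480, LOC113060775 and LOC113060761 summed to 1.67 ± 0.472, 0.940 ± 0.315 and 0.991 ± 0.596 FPKM. White skin therefore held GTP cyclohydrolase transcripts from the other copies at levels that overlapped those of brown skin.

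**Figure D2:**
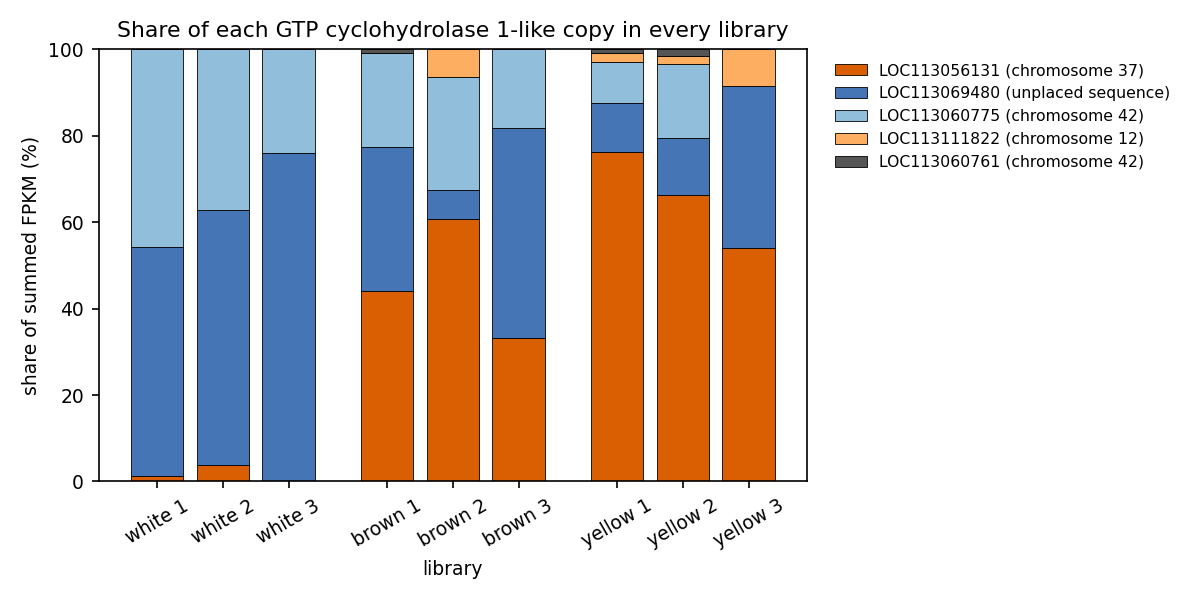
Share of the summed FPKM taken by each GTP cyclohydrolase 1-like copy, 1 bar per library. LOC113056131 took 53.9% to 76.2% in yellow, 33.2% to 60.7% in brown and at most 3.77% in white, where LOC113069480 and LOC113060775 made up the rest.

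Genomic neighbours placed the copies in groups. LOC113056131 and LOC113111822 had the same products on both sides: calmodulin and suppressor of cytokine signaling 5-like on one flank, and cysteine-rich PDZ-binding protein, phosphatidylinositol-glycan biosynthesis class F-like and RhoQ on the other. LOC113069480 shared Smaug homolog 1-like, ERO1 alpha and GPR137B-like neighbours with LOC113060761, and a suppressor of cytokine signaling 4-like neighbour with LOC113060775. It shared a glucosamine 6-phosphate N-acetyltransferase-like neighbour with both LOC113060761 and LOC113060775. LOC113056131 overlaps the opposite-strand gene LOC113056132, a cysteine-rich PDZ-binding protein, by 266 bases, and the labels do not state whether counting used strand. That neighbour was at 9.79 to 11.4 FPKM in the white libraries, where LOC113056131 had its 2 reads. LOC113111822 likewise overlaps LOC113111823 by 623 bases, and how many of its few reads fall in the overlap was not tested.

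Later steps of the pteridine pathway held no gene that passed the test. Of 23 rows matched to pteridine synthesis, 11 were tested and 3 were at 0 in every library. No row of the list was called in any comparison, and none had an unadjusted p under 0.05 in limma. The median difference on the log2(FPKM + 1) scale was -0.12 for yellow against white, beside -0.03 over all genes tested. It was -0.31 for brown against white, beside -0.02. The summed level was 46.0 to 51.6 FPKM in yellow, 47.2 to 49.8 in brown and 46.9 to 55.2 in white, so the ranges overlapped.

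The pteridine genes with the smallest p in yellow against white were led by pterin-4-alpha-carbinolamine dehydratase, which recycles the cofactor after use. Its copies LOC113083902 and LOC113056957 had log2 differences of -0.60 ± 0.32 and -0.81 ± 0.48 (SE, limma adjusted p = 1.00 for each). Sepiapterin reductase LOC113084596, which makes the last step to tetrahydrobiopterin, had 0.46 ± 0.38, and the dihydropteridine reductase LOC113107586 had -0.34 ± 0.30 (limma adjusted p = 1.00 for each). The regulator that binds GTP cyclohydrolase itself, LOC113117760, was at 6.92, 5.24 and 5.58 FPKM in white and at 7.68, 6.10 and 4.87 in yellow. A second sepiapterin reductase row, LOC113106704, chosen after its values were seen and too low for the test, had no read in white, 28 reads in brown and 35 in yellow. The aldehyde oxidase aox1 was at 7.37 to 9.16 FPKM in white, 6.18 to 16.5 in brown and 8.51 to 11.3 in yellow, so the colors overlapped. Another aldehyde oxidase row, the aldehyde oxidase 3-like LOC113040179, was too low for the test, at 0 in all 3 white libraries, 0.101, 0.302 and 0 FPKM in brown and 0.221, 0.0103 and 0.387 in yellow. It was named outside the rule of smallest p. LOC113040179 and LOC113106704, both picked by hand and at 0 in white, do not stand for the list. The sepiapterin reductase rows LOC113052643 and LOC113083332, the aldehyde oxidase-like LOC113077246 and the 3 xanthine dehydrogenase rows are given only within the summed level.

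Enzymes that use tetrahydrobiopterin as a cofactor made a list of 24 rows, of which 4 were tested and none passed in any comparison. Phenylalanine hydroxylase, which makes tyrosine, was tested as LOC113048675 (log2 0.50 ± 0.75 for yellow against white) and LOC113047747 (0.18 ± 0.74). Inducible nitric oxide synthase LOC113078755 had -0.37 ± 0.80 and alkylglycerol monooxygenase LOC113114993, which cleaves ether lipids, had 0.03 ± 0.42 (limma adjusted p = 1.00 for each of the 4).

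The libraries of the 3 csf1r copies overlapped between colors in each of the 3 comparisons, and no difference passed the test. LOC113113653, on chromosome 14 from 12498644 to 12522280 on the minus strand, was the highest copy in 9 of 9 libraries and held 64.3% to 84.7% of the family's reads. Its FPKM was 6.48, 10.3 and 2.49 in yellow 1, 2 and 3. It was 5.54, 4.05 and 2.99 in brown and 6.05, 5.23 and 2.52 in white. In each color the library numbered 3 was the lowest, and all 3 colors overlapped.

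For LOC113113653 the difference of yellow from white on the log2(FPKM + 1) scale was 0.31 ± 0.46 (SE), with a 95% interval of -0.73 to 1.35 (limma unadjusted p = 0.518, adjusted p = 1.00). Without yellow 2 the difference was -0.072. Brown differed from white by -0.08 ± 0.46 (interval -1.11 to 0.96), a value that turned to 0.10, 0.12 and 0.03 without brown 3, white 1 and white 2. These limma intervals thus leave room for changes of either sign. By pooled reads LOC113113653 was 1.43-fold higher in yellow than in white (1.34 to 1.53, counting error only), or 1.01-fold without yellow 2. Yellow was 1.60-fold above brown (1.49 to 1.72), or 1.12-fold without yellow 2. Brown was 0.895 times white (0.829 to 0.967), or 1.07 times without white 1.

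LOC113063849, on chromosome 46 from 2218093 to 2235096, varied little in pigmented skin, at 0.804 to 0.934 FPKM in brown and 0.874 to 1.05 in yellow. White 1, 2 and 3 were at 1.32, 0.821 and 1.93, so white held both a value inside the pigmented range and the highest value of all. The log2 difference of yellow from white was -0.24 ± 0.25 (interval -0.81 to 0.32; limma adjusted p = 1.00), and -0.42 without white 2. LOC113069556, on unplaced sequence from 407975 to 431912, was at 1.16, 1.89 and 0 FPKM in yellow, 0.687, 0.288 and 0.161 in brown and 1.16, 0.920 and 0.210 in white. Its lowest value in each color was again in the library numbered 3, where 3 reads in yellow 3 would have been 0.0684 FPKM. Yellow differed from white by 0.10 ± 0.42 (interval -0.84 to 1.05; limma adjusted p = 1.00), and the pooled fold of 1.39 (1.13 to 1.69) became 0.848 (0.649 to 1.10) without yellow 2. By pooled reads brown was 0.504 times white (0.382 to 0.659), or 0.269 times without brown 1 and 0.678 times without white 1. Yellow was 2.75-fold above brown (2.13 to 3.58), or 5.15-fold without brown 1 and 1.68-fold without yellow 2. Brown differed from white by -0.33 ± 0.42 and yellow from brown by 0.44 ± 0.42 on the log2(FPKM + 1) scale, and neither passed (limma adjusted p = 0.843 and 1.00).

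The 3 csf1r copies summed to 8.39 ± 4.82 FPKM in yellow, 5.46 ± 1.60 in brown and 6.72 ± 1.95 in white. LOC113113653 and LOC113069556 each lie beside a gene for the receptor of platelet-derived growth factor beta (pdgfrb-like), with gaps of 3063 and 3095 bases, and near CDX-1-like. LOC113063849 lies near a CDX-1-like gene too, with no pdgfrb-like gene among its 3 nearest genes on either side.

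**Figure D3:**
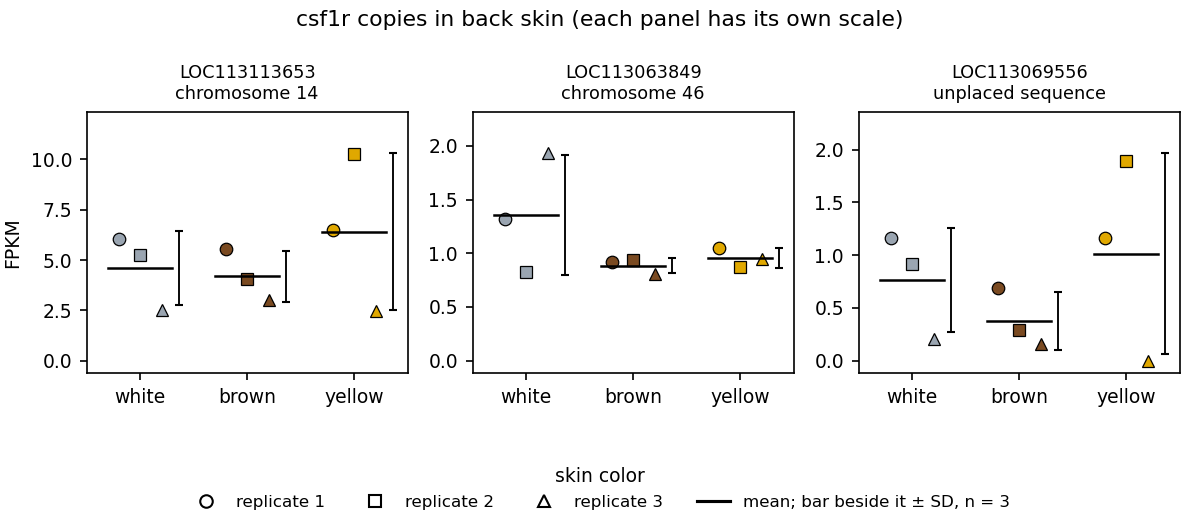
FPKM of the 3 csf1r copies in each library by skin color, with a scale of its own in each panel; points are libraries, lines are means and bars are the SD (n = 3). The colors overlapped in LOC113113653, which ranged from 2.49 to 10.3 FPKM, and in both lower copies.

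Ligands of csf1r were represented by interleukin-34 alone, since no row carried the product name of colony-stimulating factor 1. LOC113061470 was at 7.38, 7.42 and 10.1 FPKM in yellow and at 4.36, 4.46 and 4.61 in white, without overlap (log2 0.75 ± 0.34, limma unadjusted p = 0.0526, adjusted p = 1.00). In brown it was at 6.43, 11.9 and 4.68. The other row, LOC113118344, was at 4.14, 4.15 and 0.379 in yellow and 6.68, 3.85 and 2.38 in white (log2 -0.60 ± 0.52, limma adjusted p = 1.00), and neither row passed the test.

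Receptors of the same kinase family (the platelet-derived growth factor receptors, kit and flt3) gave 14 rows, 10 of them tested and none called. For yellow against white the smallest p belonged to the alpha receptors LOC113120986 (log2 -0.65 ± 0.41) and LOC113078680 (-0.55 ± 0.43), followed by the pdgfrb-like neighbours of csf1r, LOC113113654 (-0.42 ± 0.37) and LOC113069557 (-0.31 ± 0.39), each with a limma adjusted p of 1.00. In brown against white LOC113120986 was the single gene of the list under 0.05 before adjustment (log2 -1.01, limma adjusted p = 0.788).

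Macrophages also use csf1r, so their markers are given beside it. The list matched 97 rows, of which 24 were tested and 14 were at 0 everywhere, and none was called. The summed level was 370, 336 and 279 FPKM in yellow 1, 2 and 3, against 257, 310 and 236 in brown and 343, 231 and 194 in white. In each color this sum was lowest in the library numbered 3, as csf1r LOC113113653 was. The same held for GTP cyclohydrolase LOC113056131, though on 2 reads in all in white. The pattern is thus not particular to csf1r and macrophage markers. The smallest p in yellow against white belonged to the transcription factor PU.1 of myeloid cells, at LOC113067202 (log2 0.71 ± 0.39), LOC113051557 (0.63 ± 0.38) and LOC113105975 (0.44 ± 0.33), and to the scavenger receptor MARCO at LOC113109077 (-0.49 ± 0.32), each with a limma adjusted p of 1.00. The macrophage-expressed gene 1 row LOC113096386, chosen after its values were seen, was at 16.7, 17.6 and 4.52 FPKM in yellow and 18.0, 9.32 and 3.38 in white, with a mean of 4.98 ± 3.58 in brown (SD, n = 3). It was lowest in the library numbered 3 in yellow and white, as csf1r LOC113113653 was, but in brown it was lowest in brown 2, at 2.14 against 3.81 in brown 3, where LOC113113653 was lowest. The part of macrophages in the csf1r values was not tested.

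Pax-7-like LOC113068849 was higher in both pigmented colors than in white. It lies on unplaced sequence from 214514 to 263961 on the plus strand, is annotated as protein coding, and has the paired domain in the authors' domain column. Its FPKM was 6.14, 5.62 and 10.4 in yellow 1, 2 and 3. It was 1.69, 5.82 and 1.22 in brown. In white it was 0.0346, 0.688 and 0.756. All pigmented libraries lay above all white libraries, while brown 2 reached into the yellow range.

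The means of LOC113068849 were 7.37 ± 2.60 FPKM in yellow, 2.91 ± 2.53 in brown and 0.493 ± 0.399 in white (SD, n = 3 each), at the 77.4th, 48.0th and 1.60th percentile of the genes tested. By pooled reads yellow was 16.3-fold above white (counting interval 13.1 to 20.6), 9.57-fold without white 1 and 24.8-fold without white 2. Brown was 6.87-fold above white (5.45 to 8.74), with 3.64-fold without brown 2, 4.03-fold without white 1 and 10.4-fold without white 2. Yellow was 2.37-fold above brown (2.15 to 2.62) and 4.48-fold without brown 2.

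On the log2(FPKM + 1) scale LOC113068849 was 2.48 ± 0.45 (SE) higher in yellow than in white, with a 95% interval of 1.48 to 3.48 (limma unadjusted p = 0.000286, adjusted p = 0.289). It was 1.24 ± 0.45 higher in brown than in white (interval 0.24 to 2.24; limma unadjusted p = 0.0202, adjusted p = 0.788). It was also 1.24 ± 0.45 higher in yellow than in brown (limma unadjusted p = 0.0202, adjusted p = 1.00), so none of the comparisons passed.

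The 4 other Pax-7 rows were all under the filter. LOC113094688 was at 0.265, 1.53 and 0 FPKM in brown, 0, 0.497 and 0.454 in white and 0, 2.54 and 0 in yellow. LOC113110893, on chromosome 11, was at 0.166, 0.735 and 1.28 in white, with 0.0690 to 0.825 in yellow and 0.188 to 0.426 in brown. LOC113073859 ranged from 0 to 0.981 over all libraries and LOC113081160 from 0 to 0.0455. In these rows the colors overlapped, except that brown lay below white in LOC113073859.

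Of all reads on Pax-7 rows, LOC113068849 held 80.5% of 1759 in yellow (63.2% to 94.7% by library), 74.9% of 733 in brown (67.5% to 76.4%) and 26.4% of 318 in white (11.1% to 30.4%). It was the highest Pax-7 row in 6 of 9 libraries, which were the brown and yellow ones. The other 4 rows summed to 0.313 to 2.39 FPKM in white, 0.584 to 1.75 in brown and 0.522 to 3.63 in yellow.

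**Figure D4:**
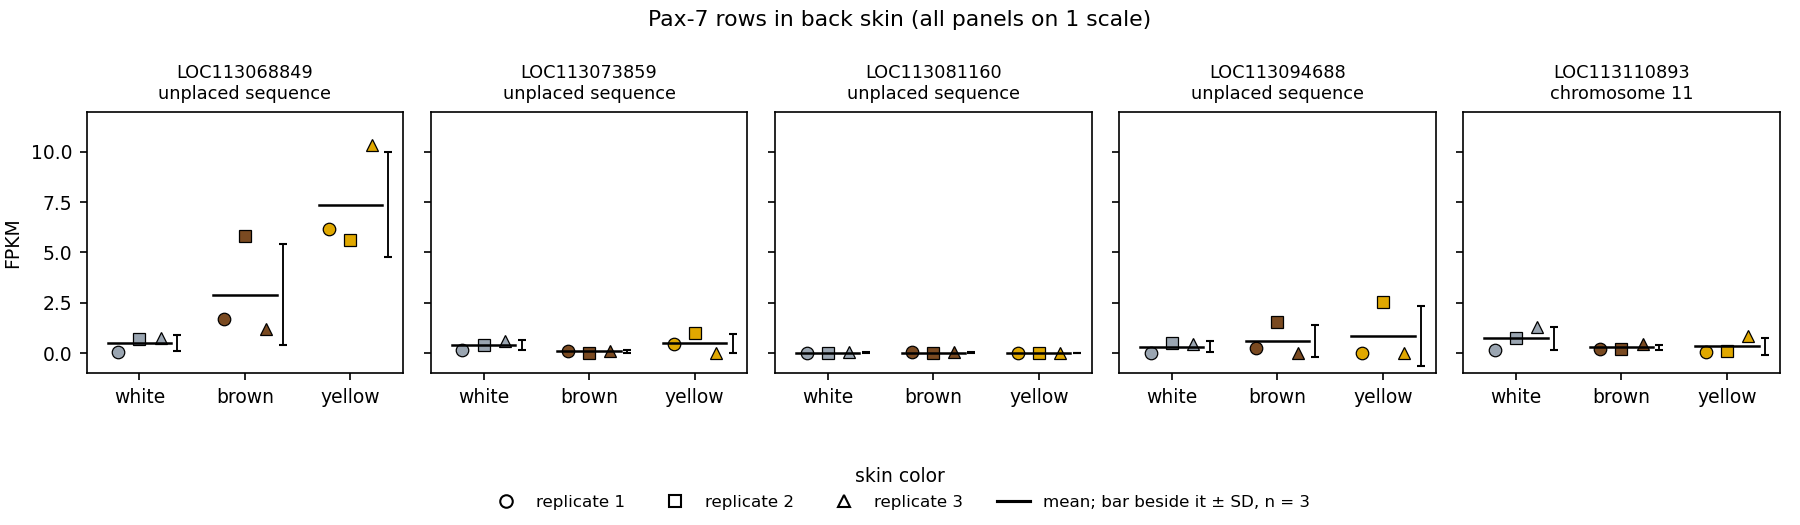
FPKM of all 5 Pax-7 rows in each library by skin color on a common scale; points are libraries, lines are means and bars are the SD (n = 3). LOC113068849 reached 10.4 FPKM in yellow and at most 0.756 in white, and no other row exceeded 2.54.

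Pax-3, the close relative of Pax-7 in neural crest and muscle, had 6 rows. LOC113114739 was the only one tested, at 1.15, 4.29 and 2.58 FPKM in brown, 0.493, 1.72 and 2.94 in white and 1.60, 1.74 and 4.10 in yellow, and its log2 difference of yellow from white was 0.40 ± 0.46 (limma unadjusted p = 0.412). LOC113058698 ranged from 0 to 1.68 FPKM and LOC113046220 from 0.105 to 0.680 over the 9 libraries. LOC113071112, LOC113112860 and LOC113113809 stayed at or below 0.243 FPKM.

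Satellite cells of muscle also use Pax-7, and muscle content varied between libraries. A list of satellite cell and myoblast markers, which includes the Pax-3 rows, matched 15 rows, 8 of them tested and none called. Its summed level was 3.15, 5.01 and 51.7 FPKM in yellow 1, 2 and 3, against 5.75, 32.0 and 144.7 in white and 16.9, 17.1 and 80.9 in brown. The myogenic factor MyoD (LOC113067086) was at 0.280, 0.814 and 8.98 in yellow and at 1.18, 8.77 and 43.8 in white. LOC113068849 was at 6.14 and 5.62 FPKM in yellow 1 and 2, where the summed markers were lowest, and at 10.4 in yellow 3. Its reads in yellow 1, 2 and 3 were 480, 473 and 463, out of 16212474, 16917243 and 15095776 counted reads. Its raw count, not scaled for depth, was thus not higher in yellow 3, the yellow library with the fewest counted reads. Set against the counted reads, it was slightly the highest in yellow 3. The higher FPKM of yellow 3 went with a lower scaling denominator per counted read, 0.762 against 1.24 and 1.28. Within white, LOC113068849 was lowest in white 1, as the summed markers were. Within brown, LOC113068849 was lowest in brown 3, at 1.22 FPKM, where the summed markers were highest. The part of satellite cells in its values was not tested. The others with the smallest p in yellow against white, myogenin LOC113055226 (log2 -1.66 ± 1.03), Myf6 LOC113062081 (-1.31 ± 0.82) and cadherin-15 LOC113051865 (-0.71 ± 0.45), also had negative differences (limma adjusted p = 1.00 for each).

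Across the 9 genes, 5 were tested and none was called after adjustment in any comparison. For yellow against white, limma called 0.0438% of the 27420 genes tested, for brown against white 0.0365% and for yellow against brown 0%. At an unadjusted p under 0.05, LOC113056131 and LOC113068849 were higher in each of the 3 comparisons, 2 of 5 genes. Over all genes tested, 2.47% were higher at that level for yellow against white, of 3.5% in either direction. The shares were 3.51% of 5.72% for brown against white and 0.671% of 1.67% for yellow against brown. LOC113056131 entered the test through 5 libraries at 1 FPKM or more and LOC113068849 through 6, all of them brown or yellow. Both were thus among the 5 tested genes only through the colors where they were high. Their counts against white, here and by overlap of libraries, are therefore no separate support for a difference. Voom on the recovered reads called no gene in any comparison, with 839, 1371 and 301 genes at an unadjusted p under 0.05 in the same order, and had 2 members at that level in each.

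By overlap of libraries, 2 of the 5 tested genes were higher in yellow than in white without overlap, beside 5.09% of all genes tested. The count was 2 for brown above white, beside 5.74%, and 1 for yellow above brown (LOC113056131), beside 2.57%. None of the 5 was lower without overlap in any comparison, beside 4.54%, 5.18% and 2.64% of all genes tested in the same order. Of the 4 untested copies, LOC113111822 was higher in yellow than in white and LOC113069480 higher in yellow than in brown without overlap. LOC113111822 rests on 8, 6 and 7 reads in yellow. The share of genes under the filter without overlap was not computed, so no result is read from these copies. Each color serves in 2 of the comparisons, so the comparisons are not independent of each other. LOC113056131 and LOC113068849 were chosen with earlier results of these libraries known, so their values are no separate support for a difference.

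**Figure D5:**
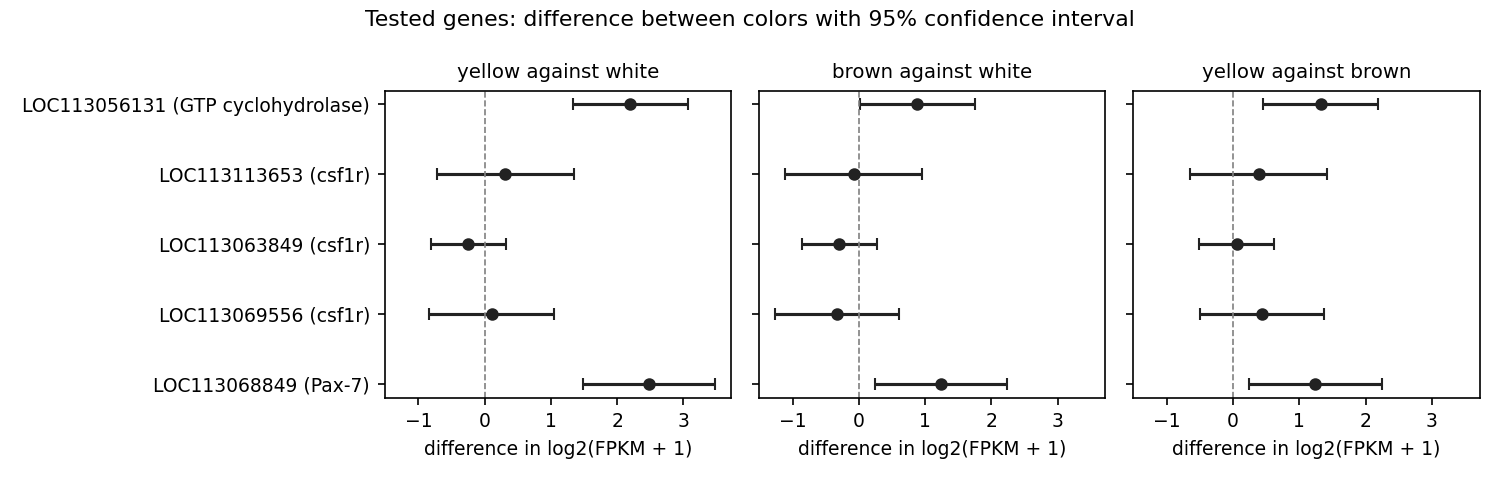
Differences in log2(FPKM + 1) between colors for the 5 tested genes, 1 panel per comparison; points are limma estimates from 3 libraries a color and bars are 95% confidence intervals. LOC113056131 and LOC113068849 lie above 0 in each panel, at 2.20 and 2.48 for yellow against white, and the intervals of the csf1r copies include 0.

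The differences of LOC113056131 and LOC113068849 between yellow and white, 2.20 and 2.48 with all libraries, were also computed without the libraries numbered 3. Without those 3 libraries LOC113056131 was 2.61 ± 0.31 (SE) higher in yellow than in white on the log2(FPKM + 1) scale (limma adjusted p = 0.203). LOC113068849 was 2.38 ± 0.49 higher (limma adjusted p = 0.658). With the muscle level as a covariate the values were 1.87 ± 0.30 and 2.63 ± 0.47 (limma adjusted p = 0.161 and 0.208). The difference of LOC113068849 between yellow and brown was 0.68 ± 0.49 without the libraries numbered 3, against 1.24 with all.

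Genes whose profile over the 9 libraries was most like that of LOC113056131 were found by the mean absolute difference of log2(FPKM + 1) values, each centred on the gene's own mean, among 24885 named genes with a median of 0.92. The nearest, at 0.15, was LOC113072589, a facilitated glucose transporter member 11-like gene (SLC2A11) on chromosome 5 from 6541557 to 6553151. In medaka a gene of this kind is needed for the color of yellow pigment cells. It was at 5.39, 4.12 and 1.84 FPKM in yellow, 0.784, 0.758 and 0.123 in brown and 0 in all 3 white libraries, with 466, 65 and 0 reads. The groups did not overlap, and the log2 difference of yellow from white was 2.18 ± 0.34 (limma adjusted p = 0.180). Likeness over 9 libraries is a description, since all genes share the same libraries and depths. Genes chosen by likeness, to LOC113056131 or to LOC113068849, follow the chosen profile by selection, so their values are no separate support for a difference. LOC113072589 also reached 1 FPKM only in yellow libraries and was tested only through them.

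After it came rasef on chromosome 8 (0.28), the vacuolar monovalent cation/H+ antiporter-like LOC113060606 on chromosome 4 (0.28), the beta-carotene dioxygenase-like LOC113051774 on chromosome 32 (0.31), whose relatives cleave carotenoids, and the chemokine receptor CXCR4-B-like LOC113053577 on chromosome 34 (0.33). In white, LOC113060606 was at 0 in all 3 libraries and LOC113051774 at 0.0457, 0 and 0. LOC113053577 kept 7.80 to 15.3 FPKM in white, below its 22.3 to 44.3 in yellow. LOC113068849 was the 58th nearest to LOC113056131, at a distance of 0.51.

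For LOC113068849 the nearest profile, at 0.18 against a median of 1.08, was the retinol dehydrogenase 7-like LOC113060382 on chromosome 42 from 733950 to 741159. Retinol dehydrogenases interconvert retinol and retinal. It was at 3.66, 3.12 and 7.11 FPKM in yellow, 0.682, 2.16 and 0.344 in brown and 0.0135, 0.0505 and 0 in white. By FPKM, yellow 3 and brown 2 were thus the highest of their colors in both genes. The raw read count of LOC113068849, not scaled for depth, was not highest in yellow 3. That library had the fewest counted reads of the yellow libraries, and set against them the count was slightly the highest there. Others of the nearest 5 were the Ras-related LOC113068176 (0.34), the Rab-34-like LOC113064181 (0.37) and LOC113069261 (0.38), which encodes PMEL, the fibril protein of melanosomes.

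Transporters used by xanthophores formed a list of 6 rows, of which 2 were tested and none called. Besides LOC113072589, the scavenger receptor class B member 1-like LOC113110322, whose relatives take up carotenoids, was at 9.66, 10.3 and 15.4 FPKM in yellow against 3.43, 6.50 and 3.52 in white (log2 1.24 ± 0.38, limma unadjusted p = 0.00982, adjusted p = 1.00). Brown, at 5.28, 11.5 and 5.16, overlapped both. No row carried the product name of SLC2A15, another xanthophore marker in zebrafish.

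Transcription factors of pigment cells gave 12 rows, 6 of them tested and none called. The smallest p in yellow against white belonged to Sox-10-like LOC113067404 (log2 -0.39 ± 0.36) and LOC113055061 (0.21 ± 0.27), factors of the neural crest lineage, then to the melanocyte factor MITF-like LOC113040922 (-0.23 ± 0.40) and TFEC-like LOC113058650 (0.22 ± 0.40), each with a limma adjusted p of 1.00. These lineage factors were thus expressed in white skin at levels that overlapped those of yellow skin.

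Markers of the other pigment cells are given as summed levels, which were not tested. The melanophore list matched 14 rows, 4 tested, 1 at 0 everywhere and none called, and its summed level was 0.672 to 0.899 FPKM in white, 4.90 to 14.1 in yellow and 5.19 to 24.7 in brown. PMEL-like LOC113069261 was at 8.67, 2.91 and 3.93 FPKM in yellow, 1.19, 4.28 and 1.17 in brown and 0, 0.180 and 0 in white (log2 2.43 for yellow against white, limma unadjusted p = 0.000259, adjusted p = 0.289). The melanin enzyme Tyrp1-like LOC113106593 was at 1.18, 5.67 and 1.85 in brown, at most 0.0876 in yellow and 0 in white. A second PMEL row, LOC113054907, had a log2 difference of 0.71 ± 0.38 and the membrane-associated transporter-like LOC113064205 had 0.93 ± 0.52 (limma adjusted p = 1.00 for each).

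The iridophore list, on reflecting cells, matched 16 rows, 7 tested, 5 at 0 everywhere and none called. At an unadjusted p under 0.05 in limma, 1 of 4 melanophore and 1 of 7 iridophore genes were higher for yellow against white, beside 2.47% of all genes tested. For brown against white, 3 of 4 and 2 of 7 were higher, beside 3.51%. For yellow against brown, 1 melanophore gene was lower, beside 1.67% of all genes tested in either direction. LOC113106593 reached 1 FPKM only in brown libraries and LOC113069261 only in brown and yellow ones. Both were tested only through the colors where they were high, so the melanophore counts are no separate support for a difference. The iridophore list summed to 21.7 to 31.5 FPKM in white, 35.0 to 48.6 in yellow and 43.0 to 44.6 in brown. Its 4 genes with the smallest p were purine nucleoside phosphorylases, which act in purine turnover, at LOC113045188 (log2 1.00 ± 0.35), LOC113111411 (0.44 ± 0.28), LOC113096695 (0.66 ± 0.48) and LOC113105882 (0.67 ± 0.50), each with a limma adjusted p of 1.00. The white libraries lay below the pigmented ones in both summed levels, and the part of these cells in the values of LOC113056131 and LOC113068849 was not tested.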

How the data were processed

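The labels name back skin of 4-month-old fish, 3 biological replicates a color, total RNA and a SMARTER mRNA-Seq kit. Per the submitters' processing notes, HISAT2 and StringTie were used (no version named). Neither the genome build, nor strand use in counting, nor the rule for reads with several matches is stated. The authors deposited FPKM per gene for each library. Of 74297 gene IDs, 72068 matched the RefSeq table of assembly ASM336829v1 and 72059 had the same start and end, so the files' coordinates are printed. FPKM times gene length gave whole multiples of a step for 100% of nonzero values (within 0.001 reads), from which reads and denominators were recovered. Depth limits low genes; intervals and floors of 3 reads cover counting error only.

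Genes with 1 FPKM or more in at least 3 libraries (27420) were tested two-sidedly by limma-trend (limma 3.58.1, R 4.3.3) on log2(FPKM + 1), all 9 libraries in 1 fit, with Benjamini-Hochberg adjustment at 0.05, and the fit was tested on simulated data. Alternatives were pseudocounts, filters, scalings, voom, a replicate block, a muscle covariate and leaving out libraries. Every member is named, as are up to 4 tested genes of each list with the smallest p in yellow against white and the 5 genes most like LOC113056131 and LOC113068849, except 1 gene that is not reported here. Of the skeletal muscle, keratin and type I collagen lists only shares or sums are given. Members and lists were chosen with earlier results of these data known. Lists match product names, and product names of proteins that only interact with a listed enzyme were taken out after the files were seen.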

Additional observations from a re-analysis of the deposited data

How the results depend on the processing

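No member was called in any of the 21 alternative settings, and all 63 counts of called members stayed at 0. Of 280 member values recomputed, 271 kept their sign and their side of the threshold and 9 changed sign, all in csf1r copies. For LOC113069556, yellow against white turned to -0.22 with a pseudocount of 0.1, -0.71 with voom, -0.27 with the muscle covariate and -0.15 without white replicate 3. For LOC113113653, yellow against white turned to -0.11 with the muscle covariate and -0.072 without yellow replicate 2, and brown against white turned to 0.10, 0.12 and 0.03 without brown replicate 3, white replicate 1 and white replicate 2; the cause was not tested. Leaving out 1 library at a time, yellow against white ranged from -0.15 to 0.54 for LOC113069556 (not tested without white 1, yellow 1 or yellow 2) and from -0.072 to 0.78 for LOC113113653, and brown against white from -0.38 to 0.12 for LOC113113653. For yellow against white, LOC113056131 ranged from 1.84 to 6.86 (log2), with limma adjusted p from 0.0529 (without yellow replicate 3) to 1.00, and LOC113068849 from 2.24 to 5.03, with adjusted p from 0.0643 (without brown replicate 2) to 1.00; the highest values are voom's, which adds no pseudocount of 1 FPKM. LOC113056131 was at an unadjusted p under 0.05 in 20 of 20 settings that tested it for yellow against white, 10 of 19 for brown against white and 20 of 20 for yellow against brown, and LOC113068849 in 21 of 21, 18 of 21 and 15 of 21. Without a filter all 9 members were tested, and LOC113111822 had limma unadjusted p = 0.00438 for yellow against white (adjusted p = 1.00). With TPM the median of all genes was -0.20 for brown against white and 0.22 for yellow against brown, against -0.02 and -0.01 in FPKM. A scaling per counted read, chosen after seeing the data, changed no call of a member. The replicate numbers share no stated source, so no pairing was assumed. Deviations of libraries with the same number correlated at 0.406 to 0.674 for number 1, -0.302 to 0.220 for number 2 and 0.186 to 0.766 for number 3. Libraries numbered 1 and those numbered 3 thus deviated together, and the source was not tested. Genes at a limma unadjusted p under 0.05 rose with a replicate block from 960 to 1548 for yellow against white. They rose from 1569 to 2128 for brown against white and from 457 to 797 for yellow against brown. With the replicate block 0 members were called; LOC113056131 had an adjusted p of 0.235 and LOC113068849 of 0.386 for yellow against white, and calls over all genes went from 9 higher and 3 lower to 6 and 0 for yellow against white and from 6 and 4 to 2 and 1 for brown against white.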
